A study of Homo sapiens with 12 samples.

Results

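The zinc finger genes of band 19p12 were examined as one cluster of neighbouring, closely related genes. The cluster was taken as 34 named genes of the ZNF family that lie side by side on the short arm of chromosome 19, and every transcript cluster of the array annotated to at least 1 of them was included. A transcript cluster is the set of probes that the array summarises into 1 value. Of the 21214 transcript clusters with a gene name, 38 belonged to these genes, 36 with 1 gene and 2 shared by several. Of the 34 genes, 33 were measured and 31 had at least 1 transcript cluster of their own. ZNF98 and ZNF728 were measured only in shared clusters, and ZNF66 in none. The cluster of genes was chosen with results of these arrays in view, because the cluster shared by 8 genes stood out with 3α-THP and with F, and a cluster of ZNF257 between 3α-THP and P4. The values of these comparisons are therefore a description, and nothing is supported with them.

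The cells were U87, an established line of human glioblastoma, and their total RNA was hybridised to Affymetrix Human Gene 1.0 ST arrays after 72 h with 3α-THP (allopregnanolone, 10 nM), P4 (progesterone, 10 nM), F (finasteride, 100 nM) or V (vehicle, DMSO). All cells were kept in medium with charcoal-stripped serum before treatment. 3α-THP is the metabolite of P4 reduced at the 5α and 3α positions, and F is a synthetic inhibitor of the 5α-reductase that carries out the 5α reduction. Each treatment had 3 biological replicates of 1 cell line, so that spread between lines or tumours was not measured. The percentage of DMSO in V is 0.1% in the characteristics of each array and differs in the protocol text, which these values cannot settle. Taking as a limit of low signal 4.79 on the log2 scale, the median of the transcript clusters without a gene name, 11 of 11 measured U87 markers, such as VIM, CD44 and FN1, lay above it with means of 5.96 to 13.2. Of 8 glial markers 4 lay above it (GFAP, SLC1A3, SLC1A2 and OLIG2), and AQP4, PTPRZ1, S100B and SOX2 below. Of 12 markers of other cell types 6 lay above it, KRT18 at 7.22, RBFOX3 at 5.98, MOG at 5.38, CDH5 at 5.22, SYT1 at 5.18 and KRT5 at 4.96, while PTPRC was at 2.95, and whether their signal is expression was not tested.

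Most genes of this region encode proteins with a KRAB domain followed by an array of C2H2 zinc fingers. The fingers read DNA, and the KRAB domain recruits the corepressor TRIM28, which brings the histone methyltransferase SETDB1 and heterochromatin proteins to the bound site. Many such proteins silence retroelements, and the cluster grew by repeated duplication in primates. ZNF91 is known to repress SVA elements and ZNF93 older L1 elements. Because the genes are copies of each other, their transcripts share long stretches of sequence, and some probe sets of the array are annotated to several of them.

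The likeness of the copies extended to their promoters. RefSeq windows from 250 bases before to 50 bases after the gene start (GRCh38.p14) were given for 26 of the 34 genes, with 27 windows in all since ZNF682 had 2. A pair of these windows shared a median of 78.33% identical bases over 351 pairs. For zinc finger genes of chromosome 19 that are not among the 34, the median was 51.0% over 17391 pairs. The closest pair of the cluster was ZNF714 and ZNF431 with 91.0%. The first window of ZNF682 was unlike the rest, and without it the least alike pair still shared 56.33%. Pairs of neighbours along the chromosome shared a median of 79.33%. The windows of 4 genes follow as examples, 5′ to 3′ along the gene. ZNF257 has the brightest cluster with 1 gene, and the other 3 are among the genes of the cluster shared by 8, whose value cannot be assigned to any 1 of them. Capitals mark the CCAAT box, the letters CCAAT to which the factor NF-Y can bind. ZNF257 lies on the plus strand at chr19:22052234-22052533, ZNF208 on the minus strand at chr19:22010894-22011193, ZNF43 on the minus strand at chr19:21836133-21836432 and ZNF730 on the plus strand at chr19:23116775-23117074.
ZNF257: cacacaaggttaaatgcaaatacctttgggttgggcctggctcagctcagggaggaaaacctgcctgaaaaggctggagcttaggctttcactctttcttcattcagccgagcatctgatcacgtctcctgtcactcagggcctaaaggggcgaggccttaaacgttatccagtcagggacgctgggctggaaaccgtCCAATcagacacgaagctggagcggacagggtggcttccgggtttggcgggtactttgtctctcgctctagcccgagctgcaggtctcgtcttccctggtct
ZNF208: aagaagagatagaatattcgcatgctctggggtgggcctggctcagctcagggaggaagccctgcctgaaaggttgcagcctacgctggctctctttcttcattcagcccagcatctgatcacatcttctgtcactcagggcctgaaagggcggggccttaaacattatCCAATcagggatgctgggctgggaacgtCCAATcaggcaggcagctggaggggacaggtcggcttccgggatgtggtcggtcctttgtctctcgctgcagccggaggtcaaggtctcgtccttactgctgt
ZNF43: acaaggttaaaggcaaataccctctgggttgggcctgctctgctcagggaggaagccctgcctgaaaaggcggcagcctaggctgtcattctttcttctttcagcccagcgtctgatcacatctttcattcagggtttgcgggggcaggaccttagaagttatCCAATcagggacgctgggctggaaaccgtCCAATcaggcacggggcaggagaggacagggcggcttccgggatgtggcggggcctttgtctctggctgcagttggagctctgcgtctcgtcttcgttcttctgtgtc
ZNF730: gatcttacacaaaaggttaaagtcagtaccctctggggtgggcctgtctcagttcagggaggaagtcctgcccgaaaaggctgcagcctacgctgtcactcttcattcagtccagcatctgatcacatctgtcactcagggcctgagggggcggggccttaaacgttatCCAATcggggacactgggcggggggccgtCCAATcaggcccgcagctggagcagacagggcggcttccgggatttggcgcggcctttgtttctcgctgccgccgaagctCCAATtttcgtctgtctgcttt

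These windows hold 1 CCAAT box in ZNF257, 2 in ZNF208, 2 in ZNF43 and 3 in ZNF730. Counting both strands, 26 of the 27 windows (96.3%) held a CCAAT box, against 42.9% of windows of other zinc finger genes on chromosome 19 and 34.6% of 35116 windows of all genes. Most windows held a pair of boxes at like distances: 42 of the 46 boxes on the strand of the gene lay between 100 and 30 bases before the start. The longer stretch TCCAATCAGG, which contains the box, was in 24 of the 27 windows (88.9%) and in 0.347% of all windows. This stretch was picked from the member windows, and the CCAAT box and the TATA box below were chosen with them in view. Their shares there are therefore a description. The full cAMP response element, TGACGTCA, was in 0 of the 27 windows and in 1.85% of all windows. Its shorter core, TGACG, was in 2 (7.41%) and in 24.6% of all windows. The letters TTGCNNAA, which a CEBP factor can bind, were in 0 windows and in 10.5% of all windows. The TATA box, TATAAA, was in 3 (11.1%) and in 11.5% of all windows. Both strands were searched for each motif, and a match shows only that the letters are present. Because the windows are copies of each other, the 27 are not independent, and each count may repeat 1 shared sequence.

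**Figure D1:**
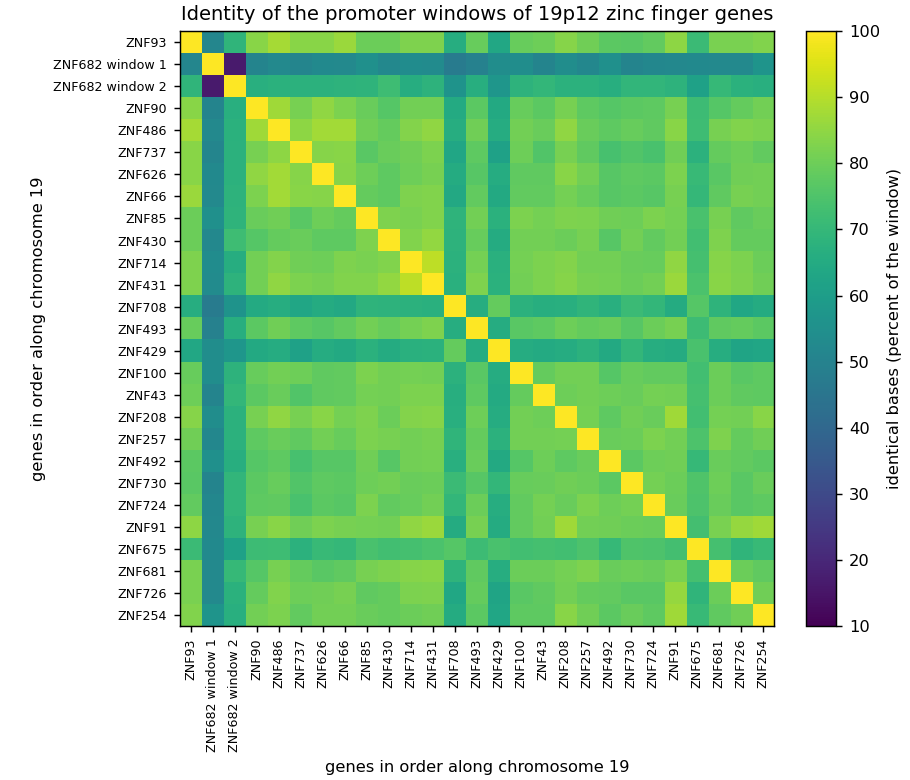
Percent of identical bases between the 300-base promoter windows of the 26 genes with a RefSeq window, in order along chromosome 19 on both axes (colour scale in percent). Most pairs lie near the median of 78.33%, and the first window of ZNF682 stands apart from the rest.

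**Figure D2:**
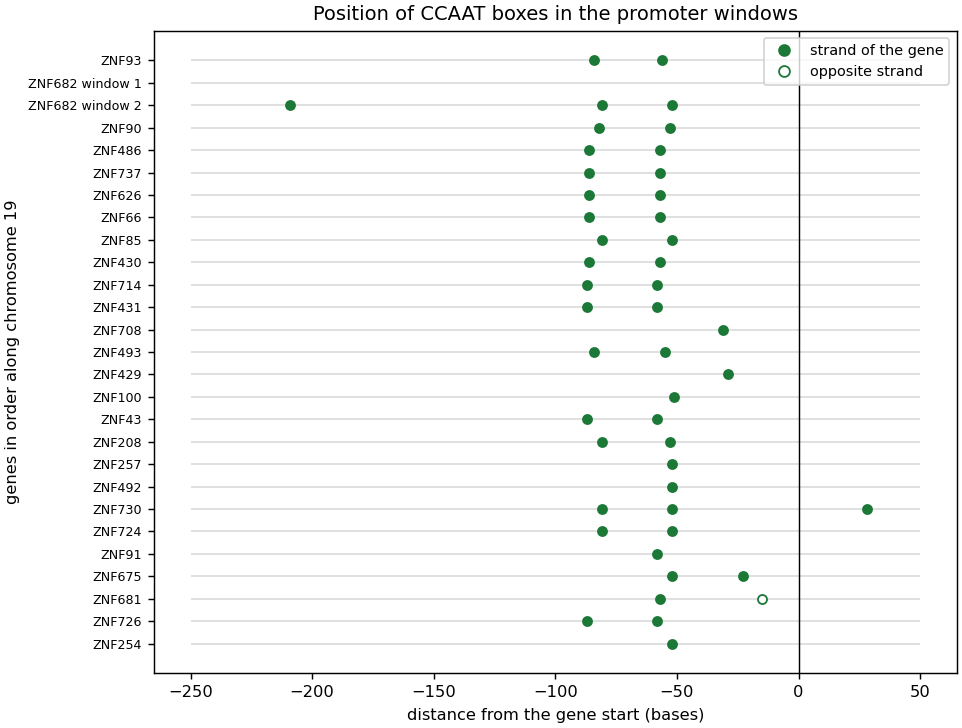
Position of each CCAAT box in bases from the gene start (horizontal axis) in the promoter window of each gene (vertical axis, in order along chromosome 19). Of the 46 boxes on the strand of the gene, 42 lie between 100 and 30 bases before the start, and 1 box, in ZNF681, is on the opposite strand.

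The signal of most of the cluster was low in U87 cells. Against the limit of 4.79, 35 of the 38 transcript clusters (92.1%) lay below on the mean of all 12 arrays, beside 22.4% of all 21214. The 3 above it were the cluster shared by 8 genes, ZNF257 (transcript cluster 8180285) and ZNF208 (8180262). With V, the brightest clusters with 1 gene were ZNF257 (8180285) at 6.68, ZNF208 (8180262) at 4.89 and ZNF85 at 4.70, and the dimmest were ZNF431 at 2.24, ZNF626 (8035779) at 2.33 and ZNF43 at 2.33. These are log2 values of different probe sets and do not rank the genes by abundance. The array medians over the 38 clusters lay between 2.84 and 3.00, and those over all tested clusters between 6.35 and 6.40 after the authors' normalization.

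The transcript cluster shared by ZNF43, ZNF85, ZNF99, ZNF208, ZNF430, ZNF676, ZNF728 and ZNF730 (8027352) was the brightest of the 38 and had the largest increase against V with each of the 3 steroids. Its log2 values were 10.88, 10.84 and 10.89 with 3α-THP, 10.51, 10.60 and 10.69 with P4, and 10.98, 10.98 and 11.01 with F, against 10.20, 10.27 and 10.22 with V. All 9 steroid arrays lay above all 3 V arrays, and the P4 arrays lay between those of V and those of 3α-THP and F. The log2 fold change was 0.64 (SE 0.0733, n = 3 arrays per treatment) for 3α-THP, 0.76 for F and 0.37 for P4, with the same SE. As folds these were 1.56, 1.70 and 1.29. The cluster ranked first of all 21214 by p with 3α-THP (limma, adjusted p = 0.0198) and with F (limma, adjusted p = 0.00289). It was the 1 cluster of all tested (0.00471%) past the adjustment in each of these comparisons, and both comparisons chose the genes. With P4 it ranked second (limma, adjusted p = 1.0), so it did not pass the adjustment there, and the V arrays are the same in all 3 comparisons. The adjusted p with 3α-THP was above 0.05 when any of the V, 3α-THP or F arrays or replicate 2 of P4 was left out, with values of 0.0561 to 0.193, while the log2 fold change stayed between 0.63 and 0.66. In a fit of only the 2 treatments compared, the adjusted p was 0.294 with 3α-THP and 0.137 with F.

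The value of this cluster cannot be assigned to 1 of its 8 genes. Of the 8, 7 had a transcript cluster of their own, and none of these passed the study's threshold, which asks for a change of over 1.5 times together with a p under 0.05 before adjustment, with any steroid. With 3α-THP and F the log2 fold changes were -0.02 and 0.08 for ZNF43, -0.05 and -0.04 for ZNF85, -0.02 and -0.07 for ZNF99, and -0.04 and 0.12 for ZNF430. They were -0.11 and -0.10 for ZNF676 and -0.24 and -0.44 for ZNF730. ZNF208 had 3 clusters of its own, given below. The clusters of these genes were below the limit of 4.79 except 1 of ZNF208.

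The transcript cluster shared by ZNF85, ZNF98 and ZNF492 (8035831) had the same order of treatments at a low signal. Its log2 values were 3.01, 3.04 and 3.10 with 3α-THP, 2.83, 2.88 and 3.04 with P4, and 3.04, 3.10 and 3.15 with F, against 2.75 on each of the 3 V arrays. Each steroid lay above V without overlap, and the P4 arrays overlapped those of 3α-THP. The log2 fold changes were 0.30 for 3α-THP, 0.35 for F and 0.17 for P4 (SE 0.0774), below the fold of the threshold. The cluster of ZNF492 alone was not higher, with -0.10, -0.35 and -0.30 for 3α-THP, F and P4.

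**Figure D3:**
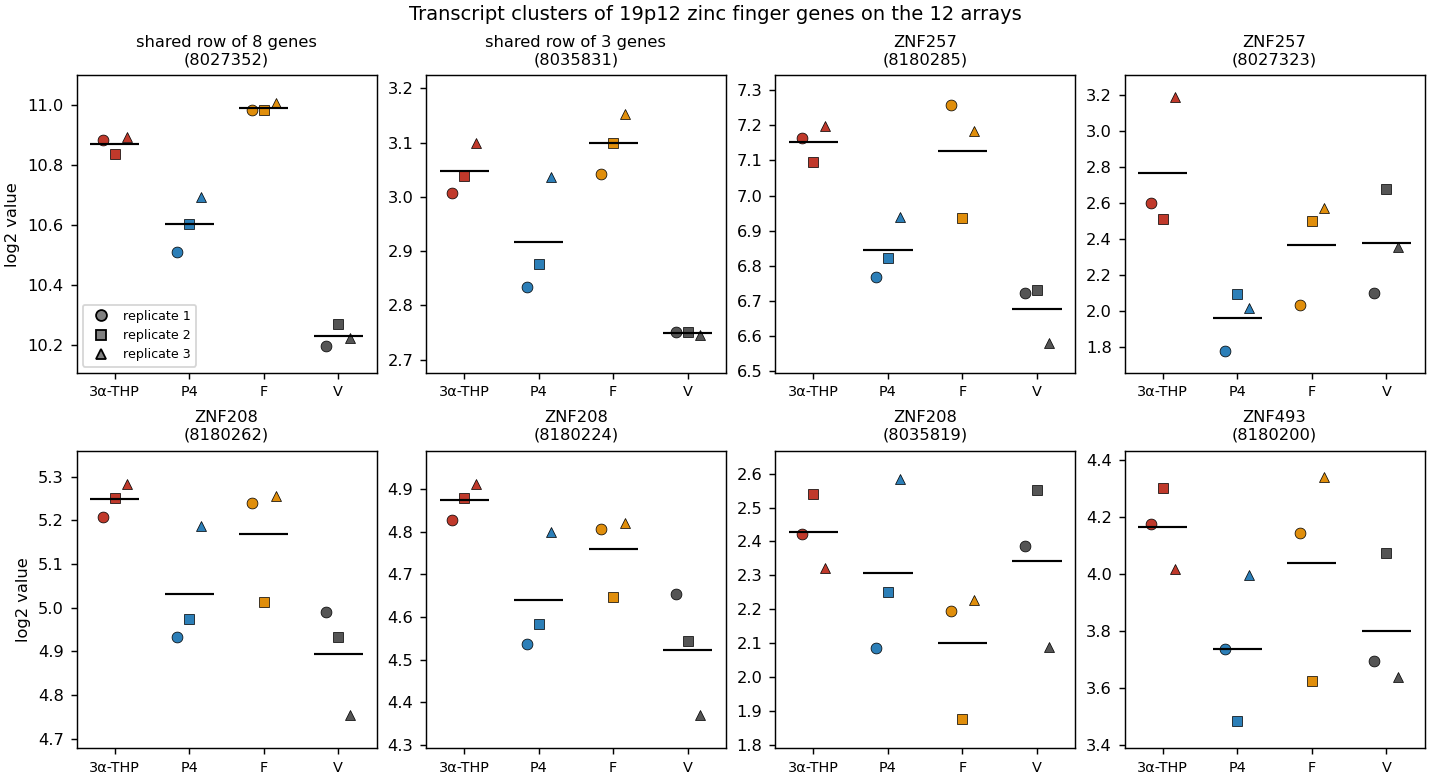
Deposited log2 values (vertical axis, own scale in each panel) of 8 transcript clusters on the 12 arrays, with 3α-THP, P4, F and V from left to right. Each symbol is an array, its shape the replicate number, and the bar is the mean of the 3 arrays; in the cluster shared by 8 genes the 3 V arrays, at 10.20 to 10.27, lie below all others.

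Among clusters with 1 gene, the largest log2 fold changes with 3α-THP belonged to ZNF257, ZNF493 and ZNF208. ZNF257 (8180285) had log2 values of 7.16, 7.10 and 7.20 with 3α-THP, 6.77, 6.82 and 6.94 with P4, and 7.26, 6.94 and 7.18 with F, against 6.72, 6.73 and 6.58 with V. The arrays of each steroid lay above those of V without overlap. The log2 fold changes were 0.48 with 3α-THP (SE 0.0953, limma, adjusted p = 0.376), 0.45 with F (adjusted p = 0.833) and 0.17 with P4 (adjusted p = 1.0), so none reached a fold of 1.5 or passed the adjustment. The other cluster of ZNF257 (8027323), at a low signal, did not follow it. There the log2 values were 2.60, 2.51 and 3.19 with 3α-THP, 1.77, 2.09 and 2.01 with P4, and 2.03, 2.50 and 2.57 with F, against 2.10, 2.68 and 2.35 with V. The P4 arrays were below all V arrays, and the 3α-THP and V arrays overlapped. Its log2 fold changes were 0.39 with 3α-THP, -0.01 with F and -0.41 with P4 (SE 0.198), none of which passed the threshold. These rest on single arrays: the value was 0.18 with 3α-THP without replicate 3 of 3α-THP and 0.25 without replicate 1 of V, it was -0.15 with F without replicate 1 of V, 0.14 without replicate 2 of V and 0.16 without replicate 1 of F, and it was -0.26 with P4 without replicate 2 of V.

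ZNF208 was measured in 3 clusters of its own, and 2 of them moved alike. The values of these 2, 8180262 and 8180224, kept a nearly constant distance on all arrays, so they are not read as independent measurements. In 8180262 the log2 values were 5.21, 5.25 and 5.28 with 3α-THP, 4.93, 4.97 and 5.19 with P4, and 5.24, 5.01 and 5.26 with F, against 4.99, 4.93 and 4.76 with V. The arrays of 3α-THP and of F lay above those of V, and those of P4 overlapped V. The log2 fold changes were 0.35, 0.28 and 0.14 for 3α-THP, F and P4 in 8180262 and 0.35, 0.23 and 0.12 in 8180224. The dimmest cluster of the gene (8035819) had 0.09, -0.24 and -0.04 and overlapped V in each comparison. ZNF493 had 0.36, 0.24 and -0.06 in 8180200, and 0.13, 0.18 and -0.11 in 8027304, all overlapping V. The IDs of the clusters 8180285, 8180262, 8180224 and 8180200 lie at the high end of the array's numbering, and the 169 named clusters at that end had a median log2 fold change of -0.05 with 3α-THP and -0.02 with F.

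Some clusters lay lower than V. ZNF90 had log2 values of 2.68, 2.66 and 2.86 with 3α-THP, 2.85, 2.92 and 3.11 with P4, and 2.85, 2.81 and 2.80 with F, against 3.36, 2.98 and 2.93 with V. The 3α-THP and F arrays did not overlap V, and the log2 fold changes were -0.36 with 3α-THP and -0.26 with F (SE 0.115), short of the fold of the threshold. ZNF730 had the smallest value with F, -0.44 (SE 0.159), followed by ZNF492 with -0.35. The 3 F arrays of ZNF492 lay below V, and those of ZNF730 overlapped it. With 3α-THP the smallest values after ZNF90 were -0.24 for ZNF730 and -0.14 for ZNF626 (8035779), and both overlapped V. All these clusters have a mean below 4.79.

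ZNF486 was the only other cluster with 1 gene that 3α-THP placed above V without overlap. Its log2 values were 4.04, 3.94 and 3.97 with 3α-THP, 3.90, 3.96 and 3.95 with P4, and 3.95, 3.69 and 3.78 with F, against 3.73, 3.74 and 3.69 with V. The log2 fold changes were 0.26 with 3α-THP, 0.22 with P4 and 0.09 with F (SE 0.0808). F gave ZNF726 a log2 fold change of 0.28 with arrays that overlapped V. The known retroelement repressors did not pass the threshold with any steroid. The log2 fold changes with 3α-THP, F and P4 were -0.01, 0.01 and 0.05 for ZNF91 and -0.11, -0.04 and -0.20 for ZNF93, each overlapping V. ZNF675, which binds TRAF6 and dampens its signalling, had -0.08, -0.06 and 0.17, and ZNF682 had 0.05, 0.02 and 0.17. With P4, the smallest values after ZNF257 (8027323) were -0.33 for ZNF730 and -0.33 for ZNF676, whose log2 values were 2.49, 2.25 and 2.47 with P4, against 2.66, 2.76 and 2.78 with V. The P4 arrays of both genes lay below V without overlap, at a low signal.

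**Figure D4:**
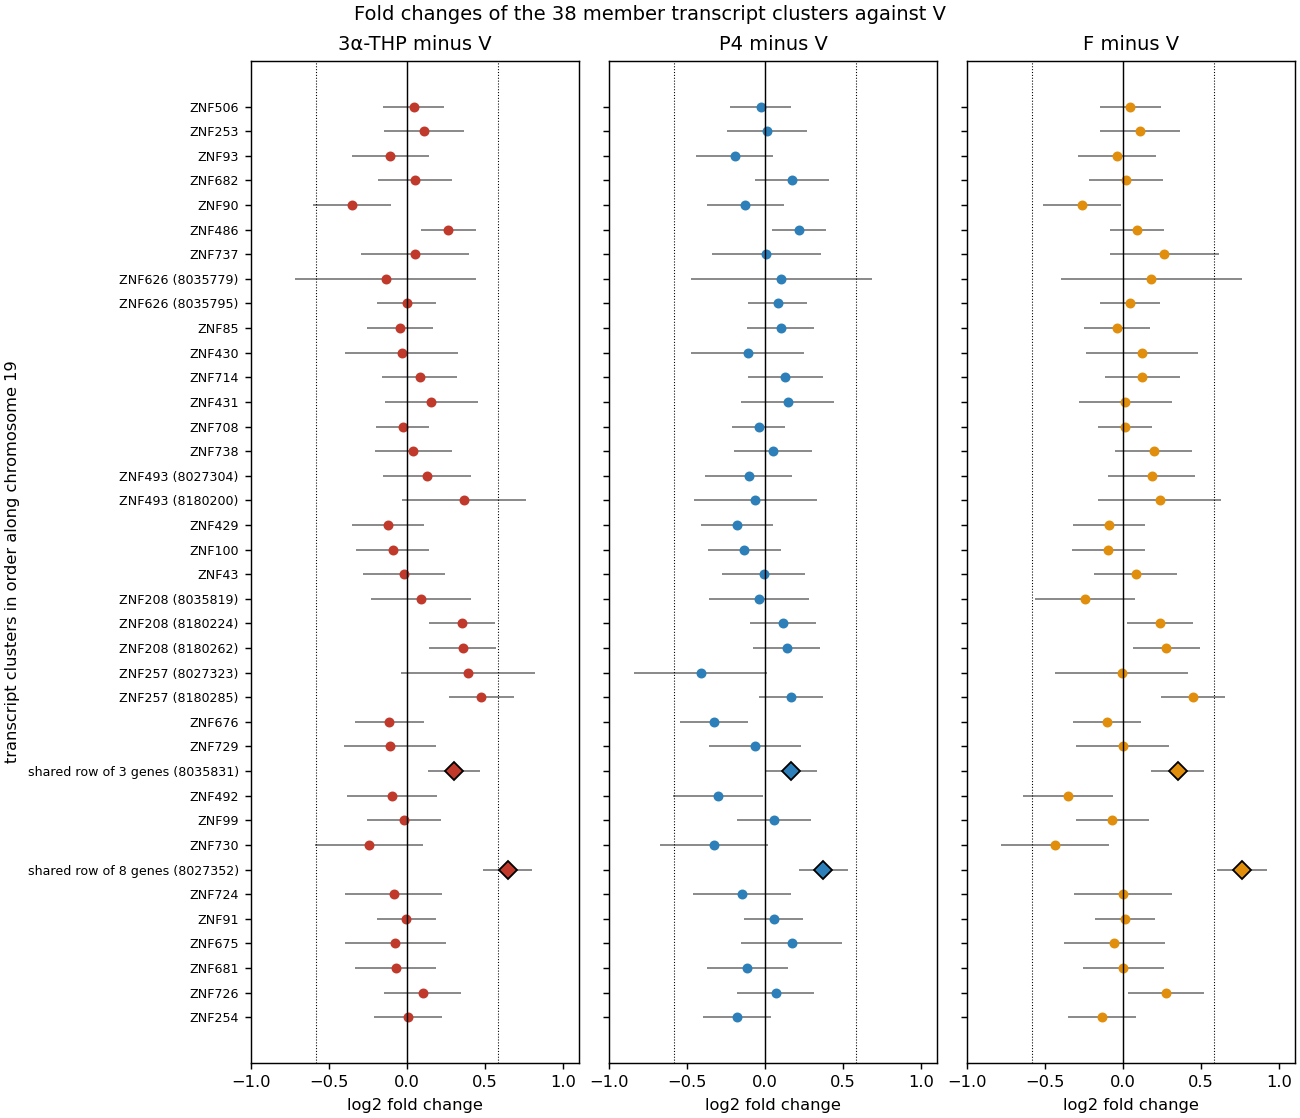
Log2 fold change against V with its 95% confidence interval (horizontal axis) of the 38 transcript clusters in order along chromosome 19 (vertical axis), for 3α-THP, P4 and F. Diamonds are the shared clusters and dotted lines the fold of 1.5; with 3α-THP and F the cluster shared by 8 genes, at 0.64 and 0.76, is the 1 cluster beyond the line with an unadjusted p under 0.05.

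Over the whole cluster of genes few transcript clusters passed the threshold against V, and the log2 fold changes went both ways. With 3α-THP, 1 of the 38 clusters passed the threshold, in the upward direction, and 0.679% of all tested clusters passed it in either direction. With F, 1 passed it, against 0.396% of all. Both counts are the cluster shared by 8 genes, which helped to choose the genes, and nothing is read from them. Of all clusters shared by several genes, 0.456% passed it upward with 3α-THP and 0.399% with F. With P4, 0 passed it (limma; 0 also by the analysis of variance of the methods, likewise in the comparisons of 3α-THP and of P4 with F), against 0.0236% of all, and 4 had an unadjusted p under 0.05, 2 higher and 2 lower, against 0.914% and 0.905% of all. With 3α-THP 6 were higher and 1 lower at that p, against 3.25% and 4.09%, and with F 6 and 3, against 2.58% and 2.11%. The median log2 fold change of the 38 was -0.0006 with 3α-THP, 0.02 with F and -0.0012 with P4, beside -0.03, -0.02 and -0.01 over all tested clusters. With 3α-THP, 19 of the 38 log2 fold changes were above 0, with F 23 and with P4 19. Without overlap of the arrays, 6 lay above and 1 below V with 3α-THP, against 4.02% and 7.28% of all clusters. With F these were 4 and 3, against 3.6% and 5.51%, and with P4 4 and 5, against 1.97% and 3.47%. Out of 38, the counts at the unadjusted p and those without overlap are larger shares than those of all clusters. The lower ones with 3α-THP are the exception, with smaller shares. The comparisons of 3α-THP and F with V chose the genes, and all use the same V arrays. The 3 clusters above the limit of 4.79 had log2 fold changes of 0.35 to 0.64 with 3α-THP, 0.28 to 0.76 with F and 0.14 to 0.37 with P4. The other 35 ranged from -0.36 to 0.39 with 3α-THP, from -0.44 to 0.35 with F and from -0.41 to 0.22 with P4.

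**Figure D5:**
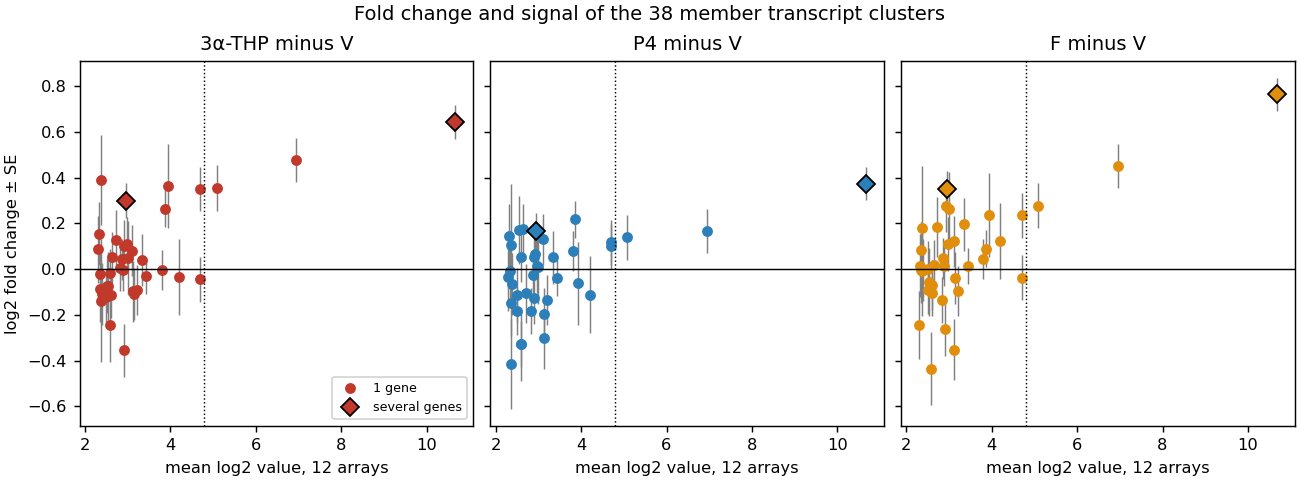
Log2 fold change against V with its SE (vertical axis) by the mean log2 value over the 12 arrays (horizontal axis) for the 38 transcript clusters, for 3α-THP, P4 and F. The dotted line is the limit of 4.79; the 3 clusters to its right lie above 0 in each panel, while the 35 to its left lie on both sides of 0.

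3α-THP and P4 were given at the same dose and for the same time, which makes 1 pair of related steroids to compare. The steroids differ in the reduction at the 5α and 3α positions. ZNF257 (8027323) was 0.80 higher with 3α-THP than with P4 on the log2 scale (SE 0.198, 95% CI 0.38 to 1.23), a fold of 1.75, and was the 1 cluster of the 38 past the threshold, against 0.25% of all tested clusters. This value helped to choose the genes. Its adjusted p was 0.999 (limma), and its mean lies below the limit of 4.79. The brighter cluster of ZNF257 (8180285) was 0.31 higher (95% CI 0.10 to 0.52), without overlap. The cluster shared by 8 genes was 0.27 higher (95% CI 0.11 to 0.43), and ZNF208 0.22 (8180262, 95% CI 0.0012 to 0.43) and 0.23 (8180224). ZNF493 (8180200) was 0.43 higher (95% CI 0.03 to 0.82). In all, 7 of the 38 clusters lay higher with 3α-THP without overlap and 0 lower, against 3.13% and 5.1% of all clusters. The smallest values were -0.25 for ZNF675, -0.24 for ZNF626 (8035779) and -0.23 for ZNF90, each with overlapping arrays. The intervals of the retroelement repressors included 0: the 95% CI was -0.25 to 0.13 for ZNF91 and -0.16 to 0.34 for ZNF93. No cluster passed the adjustment over all tested clusters (limma), and 6 of the 38 had an unadjusted p under 0.05, all higher with 3α-THP, against 1.82% higher and 2.14% lower of all.

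F was given at another dose than 3α-THP and P4, so that the remaining comparisons set unlike doses side by side. Between 3α-THP and F, 0 of the 38 passed the threshold, against 0.0566% of all tested clusters, and 2 had an unadjusted p under 0.05, both higher with 3α-THP, against 1.22% higher and 1.07% lower of all. These were ZNF208 (8035819), 0.33 higher with 3α-THP without overlap, and ZNF486, 0.18 higher with overlapping arrays. ZNF257 (8027323) at 0.40 and ZNF492 at 0.26 also overlapped, as did the lowest, ZNF626 (8035779) at -0.32, ZNF737 at -0.21 and ZNF726 at -0.18. In the cluster shared by 8 genes, 3α-THP was -0.12 relative to F (95% CI -0.28 to 0.04) with no overlap of the arrays. In all, 2 clusters, ZNF208 (8035819) and ZNF208 (8180224, 0.11), lay higher and 1 lower with 3α-THP without overlap, against 2.92% and 3.68% of all. Between P4 and F, 0 of the 38 passed the threshold, against 0.0519% of all, and 5 had an unadjusted p under 0.05, all lower with P4, against 1.66% higher and 1.21% lower of all. In the cluster shared by 8 genes the log2 fold change was -0.39 (SE 0.0733), and it ranked first of all tested clusters by p without passing the adjustment (limma, adjusted p = 1.0), and its arrays did not overlap. The other 4 were ZNF493 (8027304) at -0.29, ZNF257 (8180285) at -0.28, ZNF676 at -0.22 and the cluster shared by 3 genes at -0.18. ZNF257 (8027323) at -0.41 and ZNF493 (8180200) at -0.30 overlapped, as did the highest, ZNF675 at 0.23, ZNF208 (8035819) at 0.21 and ZNF682 at 0.16. The 4 lower without overlap were the shared clusters, ZNF493 (8027304) and ZNF676, against 3.32% of all clusters, and 0 were higher, against 4.75%. These comparisons use the same arrays as those against V and are not independent of them.

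The arrays of 1 replicate number tended to deviate together across all genes, and the zinc finger genes were examined for the same. The replicate number was not used to choose the genes. In a fit with treatment and number, 0 of the 38 transcript clusters had an adjusted p under 0.05 for the number (limma; smallest adjusted p 0.0777, 1 with an unadjusted p under 0.05), against 16.1% of all tested clusters, 3.24% of those below the limit of 4.79 and 19.8% of the rest. At the unadjusted p the share of all tested clusters was 29.7%. That of clusters below the limit, where 35 of the 38 lie, was not counted at this p.

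Other zinc finger genes and chromatin regulators, partners of KRAB proteins among them, were set beside the cluster. Of 196 transcript clusters with 1 zinc finger gene elsewhere on chromosome 19, 1 passed the threshold with 3α-THP, ZNF480 at 0.90 on the log2 scale, and 0 with F, beside 0.679% and 0.396% of all tested clusters. At an unadjusted p under 0.05, 7 were higher and 7 lower with 3α-THP, beside 3.25% and 4.09% of all, and 10 and 5 with F, beside 2.58% and 2.11%. Of 239 on other chromosomes, 7 passed it with 3α-THP, all higher (2.93%, beside 0.679% of all), and 3 with F (1.26%, beside 0.396%). The 7 were ZNF678, ZNF267, ZNF638, ZNF721, ZNF292, ZNF107 and ZNF117, with log2 fold changes of 0.63 to 0.86, and those with F were ZNF721, ZNF292 and ZNF117. The promoter window of ZNF107 on chromosome 7 shared 83.67% of its bases with that of ZNF431 in the cluster and held the stretch TCCAATCAGG. The windows of ZNF267 and ZNF678 held it too, each with 64.33% to its nearest window of the cluster, and those of ZNF117 (53.33%), ZNF292 (51.67%) and ZNF638 (55.0%) did not. Only the first listed window of each of these genes was compared, and none for ZNF721. Among 270 windows of zinc finger genes on other chromosomes, 15 (5.56%) held the stretch. A link between these promoters and the changes was not tested. Of 10 clusters shared by several zinc finger genes outside 19p12, the log2 fold changes ranged from -0.15 to 0.28 with 3α-THP and from 0.05 to 0.34 with F.

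A list of 29 genes held corepressors that KRAB proteins recruit, such as TRIM28 and SETDB1, and other chromatin regulators, such as ATRX and DAXX. Each gene of this list and of the next was read from its brightest transcript cluster with 1 gene. Any other cluster of the gene was not counted. Of the 29, 1 passed the threshold upward with 3α-THP and with F and 28 did not, beside 0.679% and 0.396% of all tested clusters. This was ATRX, a chromatin remodeller that deposits histone H3.3 with DAXX, with log2 fold changes of 1.05 and 0.88 (limma, adjusted p = 0.415 and 0.911), and its F arrays overlapped V. SMARCAD1, another remodeller, had 0.37 and 0.41 (SE 0.117) with both steroids above V without overlap, and MBD3 had -0.31 with 3α-THP. TRIM28 itself had -0.22 with 3α-THP, -0.19 with F and -0.06 with P4 (SE 0.161), and SETDB1 0.03, -0.02 and -0.09. The median log2 fold change of the list was -0.05 with 3α-THP and -0.02 with F. Of 20 genes of the HUSH complex and other silencers of retroelements 19 were measured, and 0 passed the threshold with any steroid (limma), beside 0.679%, 0.396% and 0.0236% of all tested clusters with 3α-THP, F and P4. At an unadjusted p under 0.05 there were 4 with 3α-THP, of which TASOR, TASOR2 and PIWIL4 were higher and PIWIL2 lower. At that p there was 1 with F, TASOR, higher, and 0 with P4. Of all tested clusters, 3.25% were higher and 4.09% lower with 3α-THP, 2.58% and 2.11% with F, and 0.914% and 0.905% with P4. TASOR, the scaffold of HUSH, had log2 fold changes of 0.22 with 3α-THP and 0.23 with F (SE 0.0867), each without overlap with V. Its relative TASOR2 had 0.43 and 0.24 (SE 0.177), both with arrays that overlapped V. PIWIL2, of the piRNA pathway, had -0.36 with 3α-THP (SE 0.138), with overlapping arrays and means of 3.48 with 3α-THP and 3.84 with V, a low signal.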

How the data were processed

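The report covers the transcript clusters of 34 zinc finger genes on 12 arrays of U87 cells, 3 for each of 4 treatments. The deposited values are the authors' log2 summaries per transcript cluster, made per the labels with Affymetrix Expression Console 1.4. Quantile normalization is named in the study's methods for another program, and the method and annotation build behind the deposited table are not given in the sources used here. The values run from 1.25 to 14.1. Of 33297 transcript clusters, the 21214 with a gene name entered a linear model in limma 3.58.1 (R 4.3.3) that gave each treatment its mean and moderated the variance with 4.73 prior degrees of freedom. The 6 pairs of treatments were compared, and p-values were adjusted by Benjamini-Hochberg over the 21214. Errors are limma's SE. The number of arrays and the low signal of most of these clusters limit the precision. The fit was tested on simulated data with independent noise on each array. These held no effect of the replicate number, so the fit was not tested under such an effect.

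The members and gene lists were chosen with earlier results of these data known. Named are the clusters past the threshold or the adjustment, the 3 largest and 3 smallest log2 fold changes of each comparison, the brightest and dimmest, the shared clusters and genes with a known role, and in the lists the genes past the threshold and those with the smallest p. TRIM28 and SETDB1 were named for their role. The order along the chromosome follows RefSeq (GRCh38.p14). Promoter windows are RefSeq's, and identity is the share of a window's bases that align to the same base (Biopython 1.88).

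The replicate numbers were taken to pair the arrays as biological replicates. Deviations from the treatment means correlated at 0.132 to 0.631 (median 0.400) over 18 same-numbered pairs of arrays. Over 36 pairs of unlike number they correlated at -0.604 to 0.226 (median -0.245). Deviations within a treatment cancel out, so the values of the unlike pairs follow partly from those of the same-numbered pairs. The reported fit leaves out the number, as in the unpaired analysis of the methods. Alternatives were the number as a fixed or random block, the analysis of variance of the methods, a fit of only the compared treatments, quantile normalization, leaving out dim or shared clusters, array weights and leaving out each array.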

Additional observations from a re-analysis of the deposited data

How the results depend on the processing

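The log2 fold changes of the cluster shared by 8 genes kept their direction in all 6 comparisons under every alternative run, as did that of ZNF257 (8027323) between 3α-THP and P4. With the replicate number as a replicate block the counts past the threshold were 1 for 3α-THP against V, 1 for F against V and 1 for 3α-THP against P4, and 0 for the other 3 comparisons, so the block changed no call; the adjusted p of the cluster shared by 8 genes was then 0.00776 with 3α-THP and 0.00233 with F. Counting only clusters with 1 gene, 0 passed with 3α-THP and 0 with F, since the cluster that passed is shared. Leaving out dim clusters, 0 passed between 3α-THP and P4, and the median log2 fold change, then over 3 clusters, was 0.48 for 3α-THP against V, 0.45 for F against V, 0.17 for P4 against V, 0.27 for 3α-THP against P4 and -0.28 for P4 against F. Leaving out 1 array, the medians over 38 clusters ranged from -0.0166 to 0.0603 for 3α-THP against V and from -0.0527 to 0.0521 for P4 against V. They ranged from -0.102 to -0.0227 for P4 against F and from -0.0470 to 0.0258 for 3α-THP against F. The median of 3α-THP against F was -0.0188 over 38 clusters and 0.0257 over the 3 that are not dim. The sign of the medians of 3α-THP and P4 against V and of 3α-THP against F is therefore not settled. The low signal of 35 of the 38 clusters limits what can be measured in them, and 3 arrays per treatment limit all values.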
